A study of Mus musculus with 11 samples.

Results

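The genes described here encode the proteins of the cytosolic ribosome, together with their tissue-restricted paralogues and their named genomic copies. They were chosen by symbol, as every name built from Rpl or Rps and a number, with or without a -ps suffix, apart from the ribosomal S6 kinases. Of the 4474 distinct genes in the deposited tables of brown adipose tissue (BAT) and liver, 52 fitted: 49 of the 2500 genes in the BAT table and 9 of the 2500 genes in the liver table, with 6 genes in both. They comprised 20 parent genes, the 3 paralogues Rpl3l, Rpl10l and Rpl22l1, 27 genes with a -ps suffix, and Rps3a3 and Rps12l1, which have no suffix but are annotated as processed pseudogenes. The GENCODE M21 annotation of GRCm38 holds 390 symbols of this form, 300 of them with a -ps suffix; those outside the tables were not analysed here.

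All mice carried floxed alleles of the PACAP receptor gene Adcyap1r1 (written Acypap1r1 floxed/floxed in the sample labels) and underwent SEFL, a procedure whose abbreviation the labels do not expand. AAV-Cre or the control virus AAV-GFP was injected into the preBötC, a brainstem region that drives breathing, so the tissues sequenced lie outside the injected region. Poly(A) RNA of BAT was represented by Cre libraries 4, 5 and 6 and control libraries 1 and 2, and liver by Cre libraries 10, 11 and 12 and control libraries 7, 8 and 9. Age, sex and the promoter of the virus were not given in the labels, which also do not say that the libraries are from separate mice; the p-values therefore cover the spread among these libraries, which may be technical.

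Values are z-scores, in which every gene has a mean of 0 and a variance of 1 across 6 libraries, so a score places a library for that gene and states neither a level nor a fold change, and 2.24 is the highest score possible. Sequencing depth is unknown. Libraries stood apart within both groups. In BAT, the 10 T and NK cell markers averaged 2.16 and the 4 Y-linked genes 2.21 in control 1, 10 skeletal muscle markers averaged -1.88 and 4 lung epithelium markers 2.20 in Cre 4, 7 hepatocyte markers averaged 2.12 in Cre 6, and 4 mitochondrially encoded genes averaged -2.16 in Cre 5. In liver, 7 B and plasma cell markers averaged 2.02, 13 mitochondrially encoded genes 2.01 and 6 hepatocyte markers -1.60 in control 8. In Cre 12, 10 skeletal muscle markers averaged 2.21 and 5 adipocyte markers 2.17. The 4 Y-linked genes averaged 2.02 in control 7, each of the 4 with a lower Cre mean. Of 6 brown fat markers only Dio2 is in the BAT table, so the tissue label could not be checked there. The part of these differences in the results below was not tested.

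The ribosome joins a small subunit, built with Rps proteins, and a large subunit, built with Rpl proteins; messenger RNAs of these proteins are abundant, and many begin with a pyrimidine tract through which their translation is controlled together. Mammalian ribosomal protein genes have many processed pseudogenes, intron-less copies of the spliced messenger RNA inserted elsewhere in the genome, and some of these still match the parent closely. Rpl3l takes the place of Rpl3 in skeletal and heart muscle, Rpl10l that of Rpl10 in the testis, and Rpl22l1 is the close relative of Rpl22.

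How far a copy differs from its parent may bear on values below, because reads from an identical stretch cannot be assigned to a gene by sequence. The rule by which such reads were counted was not given in the sources used here, and its part in the values was not tested. Each copy's annotated transcript was aligned with the parent's coding sequence. The 29 copies matched at 85.1% to 100% of aligned bases (median 99.1%), and 25 of them contained at least 1 stretch of 50 bases found unchanged in the parent. The 3 paralogues matched at 74.4% (Rpl3l), 84.7% (Rpl10l) and 80.9% (Rpl22l1, over 135 aligned bases) and shared no such stretch. The following 90-base stretches show, for 3 parents that have a pair of copies in the BAT table, a copy with no difference over the aligned bases beside one that differs. Capitals mark the bases at which the differing copy, given last, departs from its parent. The copies Rps16-ps2 (chromosome 5) and Rps16-ps3 (chromosome 8) are shown over coding bases 181 to 270 of Rps16, a small-subunit protein, and differ there at 11 bases.
Rps16: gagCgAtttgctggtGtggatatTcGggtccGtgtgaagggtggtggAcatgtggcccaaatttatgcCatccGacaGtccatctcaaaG
Rps16-ps2: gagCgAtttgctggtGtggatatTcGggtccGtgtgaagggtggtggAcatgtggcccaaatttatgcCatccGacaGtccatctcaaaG
Rps16-ps3: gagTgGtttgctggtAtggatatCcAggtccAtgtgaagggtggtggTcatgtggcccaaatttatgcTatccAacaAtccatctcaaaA
Rps6 encodes the small-subunit protein phosphorylated by the S6 kinases. Its copies Rps6-ps4 (chromosome 2) and Rps6-ps1 (chromosome 15) are shown over coding bases 208 to 297, where Rps6-ps1 differs at 6 bases.
Rps6: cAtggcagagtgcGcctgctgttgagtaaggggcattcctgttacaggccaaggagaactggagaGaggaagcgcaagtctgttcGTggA
Rps6-ps4: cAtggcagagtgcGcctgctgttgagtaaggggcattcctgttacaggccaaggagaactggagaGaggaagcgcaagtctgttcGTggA
Rps6-ps1: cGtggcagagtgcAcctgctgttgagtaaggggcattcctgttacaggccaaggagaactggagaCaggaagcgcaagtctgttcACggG
Rpl10a encodes a large-subunit protein, and its copies Rpl10a-ps1 (chromosome 1) and Rpl10a-ps2 (chromosome 13) are shown over coding bases 100 to 189, where Rpl10a-ps2 differs at 15 bases.
Rpl10a: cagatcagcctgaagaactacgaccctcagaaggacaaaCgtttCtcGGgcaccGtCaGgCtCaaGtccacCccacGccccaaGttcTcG
Rpl10a-ps1: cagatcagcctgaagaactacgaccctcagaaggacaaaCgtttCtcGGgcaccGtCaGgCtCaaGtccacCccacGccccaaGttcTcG
Rpl10a-ps2: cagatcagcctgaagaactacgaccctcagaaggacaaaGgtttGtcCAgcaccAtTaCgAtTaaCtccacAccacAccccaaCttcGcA
Rps12, another small-subunit gene, lies on chromosome 10 (23785183 to 23787275, minus strand), and the tables hold a pair of copies of it, Rps12-ps3 on chromosome 19 (59322290 to 59322783, plus strand) and Rps12l1 on chromosome 7 (56014016 to 56014414, plus strand). These 3 sequences were identical over all 396 coding bases compared, of which the first 90 are shown; Rps12-ps3 is the -ps gene that the annotation lists as protein coding.
Rps12: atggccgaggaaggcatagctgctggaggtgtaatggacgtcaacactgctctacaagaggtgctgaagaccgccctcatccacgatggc
Rps12-ps3: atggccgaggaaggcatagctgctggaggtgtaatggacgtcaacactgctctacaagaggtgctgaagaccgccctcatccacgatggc
Rps12l1: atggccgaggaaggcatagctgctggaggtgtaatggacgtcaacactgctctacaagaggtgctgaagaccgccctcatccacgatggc

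In BAT, the 19 parent genes had a lower mean score in Cre than in control libraries without exception, but none passed the test. 7 of the 19 (36.8%) had every Cre library below both controls, where 28.7% of all 2500 genes did, and 82.5% of all genes had a lower Cre mean. The parents averaged -0.24, -1.26 and -0.30 in Cre 4, 5 and 6, against 1.42 in control 1 and -0.17 in control 2. Their scores thus stood out in control 1, the highest library for 18 of them, and in Cre 5, the lowest library for 14 of them; over all genes these libraries were highest for 70.7% and lowest for 9.76%. The T and NK cell markers (10 of 10 listed) averaged -0.50, -0.18 and -0.48 in the Cre libraries, against 2.16 and -0.67 in controls, high in control 1 as the parents were. The 4 mitochondrially encoded genes, the lowest list in Cre 5, averaged 0.77, -2.16 and 0.56 in the Cre libraries, against 0.16 and 0.28 in controls. Their part in the parents' scores was not tested, and fewer cells of a type and less RNA per cell cannot be told apart in such bulk samples.

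**Figure D1:**
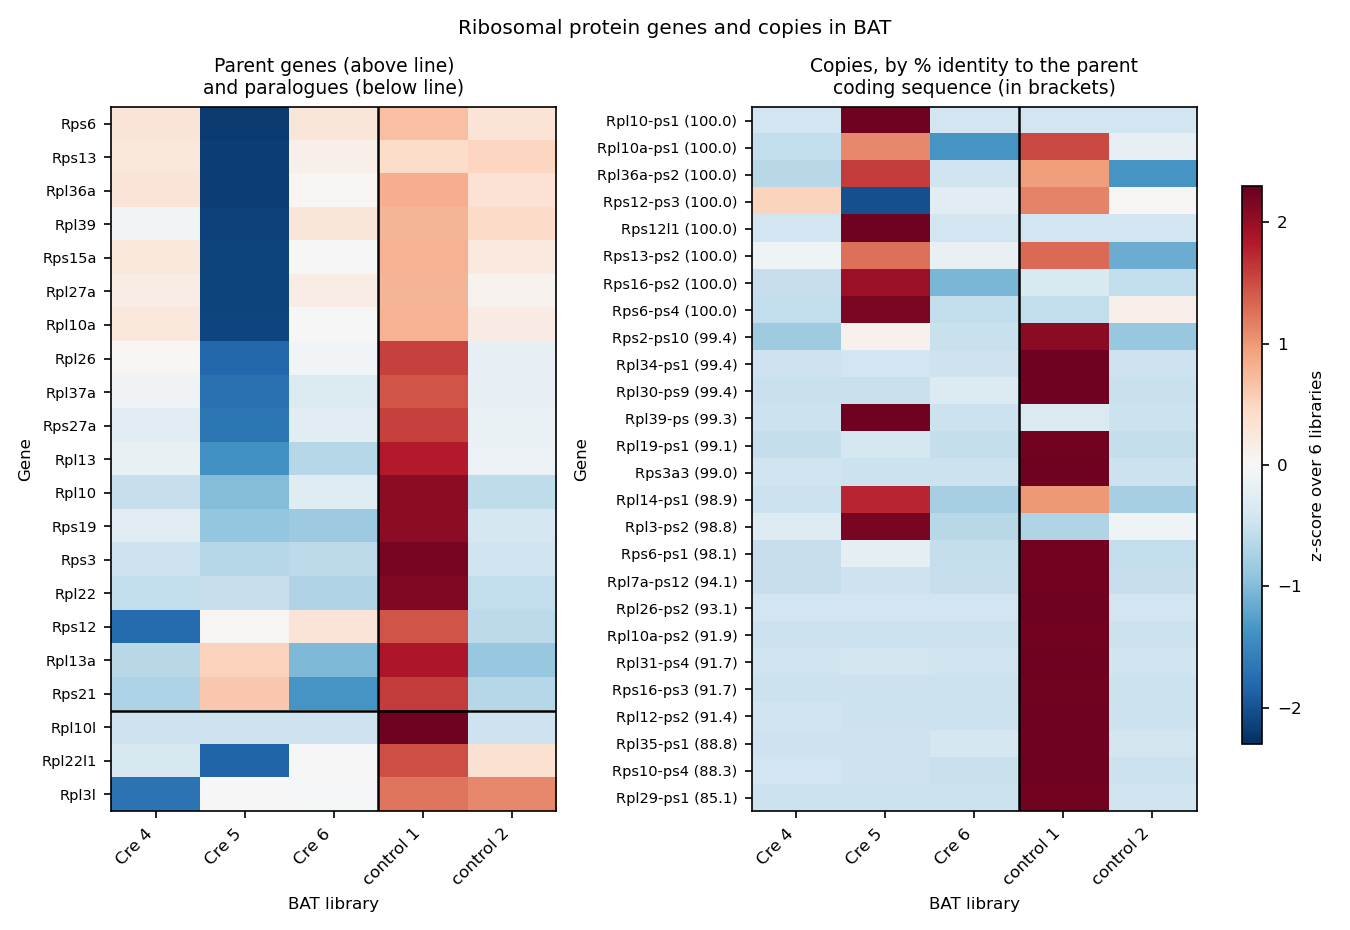
Scores of 47 of the 49 ribosomal protein genes and copies in each BAT library (columns, Cre left of control); colour gives the z-score over 6 libraries. Parents are ordered by their score in Cre 5, and copies by identity to the parent coding sequence; most parents are lowest in Cre 5, while the copies under 95% identity are all highest in control 1.

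The parents fell along a range between these libraries. Among small-subunit genes, Rps6 scored 0.30, -2.21 and 0.27 in Cre 4, 5 and 6, against 0.68 and 0.32 in controls 1 and 2. Rps13, a small-subunit protein, scored 0.26, -2.17 and 0.12 in the Cre libraries, against 0.42 and 0.50 in controls. In both genes Cre 5 alone was far from the rest; the groups did not overlap, but Cre 4 lay close to a control. Rps15a (0.24, -2.12 and -0.00 in Cre libraries, against 0.79 and 0.23 in controls) had the same low library, with overlapping groups. Rps27a, which encodes ubiquitin fused to a ribosomal protein, scored -0.27, -1.66 and -0.26 in Cre libraries, against 1.57 and -0.16 in controls. Rps19, the gene most often mutated in Diamond-Blackfan anaemia in humans, scored -0.26, -0.89 and -0.83 in Cre libraries, against 2.05 and -0.38 in controls. In Rps27a both Cre 5 and control 1 stood apart, whereas in Rps19 control 1 alone did. Rps3 went further in that direction, with 2.19 in control 1 and every remaining library between -0.65 and -0.45.

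Large-subunit genes covered the same range. Rpl36a scored 0.29, -2.16 and 0.04 in Cre libraries, against 0.84 and 0.34 in controls. Rpl39, which lines the exit tunnel for the nascent chain, scored -0.06, -2.15 and 0.28 in Cre libraries, against 0.79 and 0.44 in controls. Rpl10a scored 0.26, -2.11 and -0.02 in Cre libraries, against 0.80 and 0.18 in controls. Cre 5 was the outlying library in each, as in Rpl27a (-2.12 in Cre 5). Rpl26, Rpl37a and Rpl13 were both low in Cre 5 and high in control 1. Rpl26 scored 0.05, -1.81 and -0.07 in Cre libraries, against 1.57 and -0.20 in controls. Rpl37a scored -0.09, -1.72 and -0.33 in Cre libraries, against 1.45 and -0.19 in controls. Rpl13 scored -0.18, -1.39 and -0.65 in Cre libraries, against 1.83 and -0.14 in controls, with no overlap. It had the widest difference of the parents, -1.58 with a standard error of 0.86, and limma's gene-wise model gave an adjusted p of 0.531. Rpl10, whose product takes part in joining the subunits, scored -0.53, -0.99 and -0.27 in Cre libraries, against 2.05 and -0.59 in controls, and Rpl22 scored 2.13 in control 1 and between -0.70 and -0.52 in the other libraries.

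5 parents were not lowest in Cre 5, among them Rpl13a, Rpl22, Rps12 and Rps21. Rpl13a scored 0.53 and Rps21 0.63 in Cre 5, above Cre 4, Cre 6 and control 2 in each case. Rps12 scored -1.77, 0.05 and 0.30 in Cre 4, 5 and 6, against 1.44 and -0.61 in controls, and was the only parent whose most extreme score was in Cre 4. Its difference of -0.88 became 0.14 when control 1 was left out. Over the parents, adjusted p-values in limma's gene-wise model lay between 0.531 and 0.622, no parent had an unadjusted p under 0.05, and 11.4% of all genes did; limma with moderated variances called none either. The parents' mean difference was -1.22, and it was -0.89 without Cre 5 and -0.42 without control 1, when 4 of the 19 had a higher Cre mean.

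The 3 paralogues also had lower means in Cre libraries, each with its own outlying library. Rpl3l scored -1.70, -0.00 and -0.05 in Cre 4, 5 and 6, against 1.24 and 1.11 in controls. The groups did not overlap; the difference of -1.76 had a standard error of 0.72, and the adjusted p in limma's model was 0.503, the lowest of the 49 genes. Cre 4 was thus lowest for Rpl3l, and the 10 skeletal muscle markers averaged -1.88, 0.09 and 0.09 in Cre 4, 5 and 6, against 1.08 and 1.02 in controls 1 and 2; their part in the Rpl3l difference was not tested. Rpl22l1 scored -0.37, -1.84 and -0.01 in Cre libraries, against 1.49 and 0.34 in controls, also without overlap. It was lowest in Cre 5, where its relative Rpl22 scored -0.52. Rpl10l scored -0.47 in all 3 Cre libraries and in control 2, and 2.23 in control 1, so a single library carried its difference. Its parent Rpl10 was likewise highest in control 1, but its other libraries were not tied.

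The 27 copies in BAT were less uniform than the parents: 18 were lower and 9 higher by the Cre mean, where 17.5% of all genes were higher. Groups did not overlap in Rpl29-ps1 alone (3.7% of the copies, Cre below control), against 28.7% of all genes with Cre below and 33.0% in either direction. The copies were highest in either of 2 libraries, control 1 for 19 and Cre 5 for 8. Over all genes, control 1 was highest for 70.7% and Cre 5 for 15.4%. None of the copies passed limma's adjusted threshold (0.0% of all genes) or had an unadjusted p under 0.05 (11.4% of all genes). Ties of 2 or more libraries at the lowest score were present in 18 of the 27 copies, and in 13.2% of all genes. Where a Cre library and a control were tied at the lowest score, the groups could not separate, so ties limited the share of copies without overlap. In Rpl26-ps2, Rps16-ps3 and Rpl10a-ps2, control 1 stood above 4 tied libraries. That shape fixes the unadjusted p of limma's gene-wise model at 0.272, whatever the size of the step. What the tied libraries have in common cannot be read from z-scores.

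Of the 19 copies with at least 1 difference from the parent, 16 were highest in control 1 and 3 in Cre 5. Control 1 was also the highest library for 70.7% of all genes. The 10 copies that matched the parent at under 95% of bases all scored between 2.22 and 2.24 in control 1, and averaged -0.47, -0.47 and -0.48 in Cre 4, 5 and 6, against 2.23 and -0.47 in controls 1 and 2. Rpl26-ps2 scored -0.45 in all 3 Cre libraries, against 2.24 and -0.45 in controls. Rps16-ps3 scored -0.49 in all 3 Cre libraries, against 2.23 and -0.49 in controls, and Rpl10a-ps2 scored -0.50, against 2.22 and -0.50. In each of these, 4 libraries were tied and control 1 stood alone. Rpl35-ps1 (-0.48, -0.48 and -0.39 in Cre libraries, against 2.23 and -0.41 in controls) and Rpl29-ps1 (-0.50 in all 3 Cre libraries, against 2.23 and -0.47 in controls) differed from that shape by small steps. Rpl12-ps2, Rpl31-ps4, Rpl7a-ps12 and Rps10-ps4 also belonged to the 10. Without control 1 the mean difference of the 10 was -0.0016, against -1.35 with it.

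Copies without a difference from the parent over the aligned coding bases, called unaltered here, scored above 1 in Cre 5, the library in which most parents were low, except for Rps12-ps3. The alignment covered the whole coding sequence in these copies apart from Rpl10a-ps1, where it covered 645 of 648 bases. The 8 such copies averaged -0.35, 1.32 and -0.59 in Cre 4, 5 and 6, against 0.39 and -0.50 in controls 1 and 2; 5 of them were highest in Cre 5 and 3 in control 1. Rpl10-ps1 and Rps12l1 each scored -0.45 in Cre 4 and Cre 6, 2.24 in Cre 5, and -0.45 in both controls. Rps6-ps4 scored -0.57, 2.17 and -0.57 in Cre libraries, against -0.57 and 0.11 in controls. Cre 5 was the outlying library in all 3 genes. Rps16-ps2 scored -0.53, 1.96 and -1.06 in Cre libraries, against -0.35 and -0.57 in controls. Rpl36a-ps2 scored -0.63, 1.62 and -0.46 in Cre libraries, against 0.96 and -1.36 in controls. In Rpl36a-ps2, control 1 was second to Cre 5. Rps13-ps2 scored -0.11, 1.27 and -0.18 in Cre libraries, against 1.31 and -1.15 in controls. Rpl10a-ps1 scored -0.56, 1.11 and -1.36 in Cre libraries, against 1.52 and -0.20 in controls. Both were nearly as high in Cre 5 as in control 1. Rps12-ps3 was the exception, with 0.51, -2.01 and -0.24 in Cre libraries, against 1.15 and 0.03 in controls, a low Cre 5 as in most parents.

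**Figure D2:**
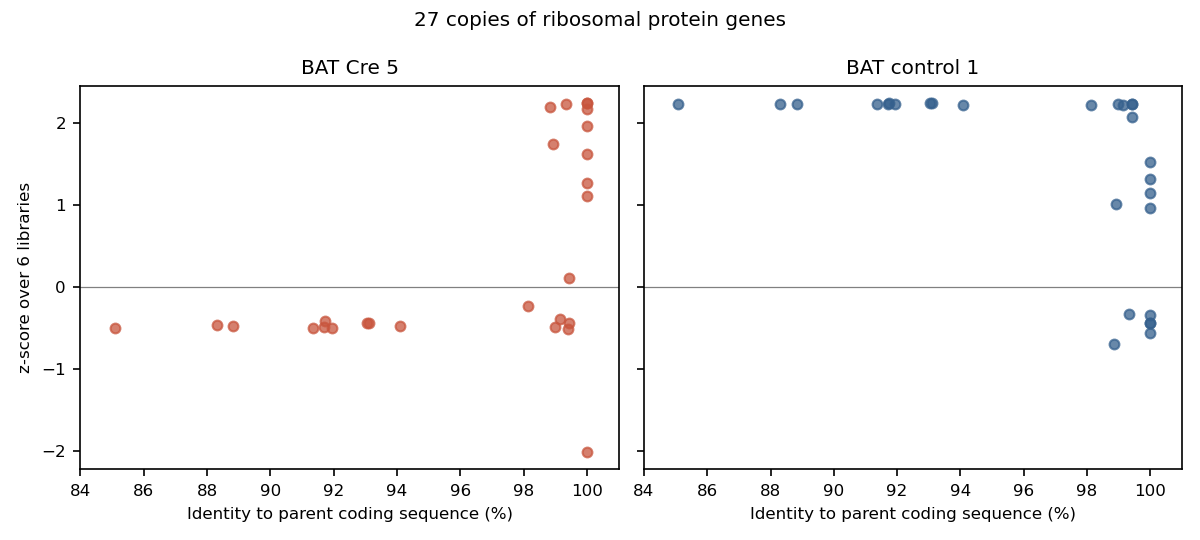
Score of each of the 27 copies in BAT Cre 5 (left) and BAT control 1 (right), against its identity with the parent coding sequence in percent. Scores above 1 in Cre 5 occur only among copies with at least 98.8% identity, and copies under 95% identity lie between 2.22 and 2.24 in control 1.

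The 8 copies highest in Cre 5 had identities of 98.8% to 100%, and 3 of them differ from their parent: Rpl39-ps (99.3%), Rpl14-ps1 (98.9%) and Rpl3-ps2 (98.8%). Rpl39-ps scored -0.49, 2.23 and -0.49 in Cre libraries, against -0.34 and -0.49 in controls, while its parent Rpl39 had its lowest score in Cre 5. Rpl3-ps2, an X-linked copy of Rpl3, scored -0.29, 2.19 and -0.64 in Cre libraries, against -0.69 and -0.11 in controls. Rpl14-ps1 scored -0.49, 1.74 and -0.75 in Cre libraries, against 1.01 and -0.75 in controls. Not every close copy was high in Cre 5: Rps6-ps1 (98.1%) scored -0.54, -0.23 and -0.55 in Cre libraries, against 2.22 and -0.56 in controls. Rps3a3 (99.0%) scored between -0.49 and -0.46 in every library other than control 1, where it scored 2.23. Rps2-ps10, Rpl19-ps1, Rpl30-ps9 and Rpl34-ps1, of 99.1% to 99.4% identity, were also highest in control 1.

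Within 3 parents an unaltered copy could be set beside a differing one, and in each the unaltered copy was higher in Cre 5 than the differing one shown above. Rps16-ps2 scored 1.96 and Rps16-ps3 -0.49 in Cre 5, with -0.35 and 2.23 in control 1; Rps16 itself is outside the table. Rps6-ps4 scored 2.17 and Rps6-ps1 -0.23 in Cre 5, where the parent Rps6 scored -2.21. Rpl10a-ps1 scored 1.11 and Rpl10a-ps2 -0.50 in Cre 5, where Rpl10a scored -2.11. The pair of copies of Rps12, both unaltered, had opposite scores in Cre 5, 2.24 for Rps12l1 and -2.01 for Rps12-ps3. A single library and 3 parents give no test of the order of unaltered and differing copies. The difference of the 8 unaltered copies depended on single libraries. Their mean difference was 0.18, and -0.42 without Cre 5, when none kept a higher Cre mean. It was -0.26 without control 2, with 4 lower and 4 higher, and 0.63 without control 1. Over all 49 genes, 9 had a higher Cre mean and none did without Cre 5, when 47 were lower and Rpl10-ps1 and Rps12l1 had no difference left.

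**Figure D3:**
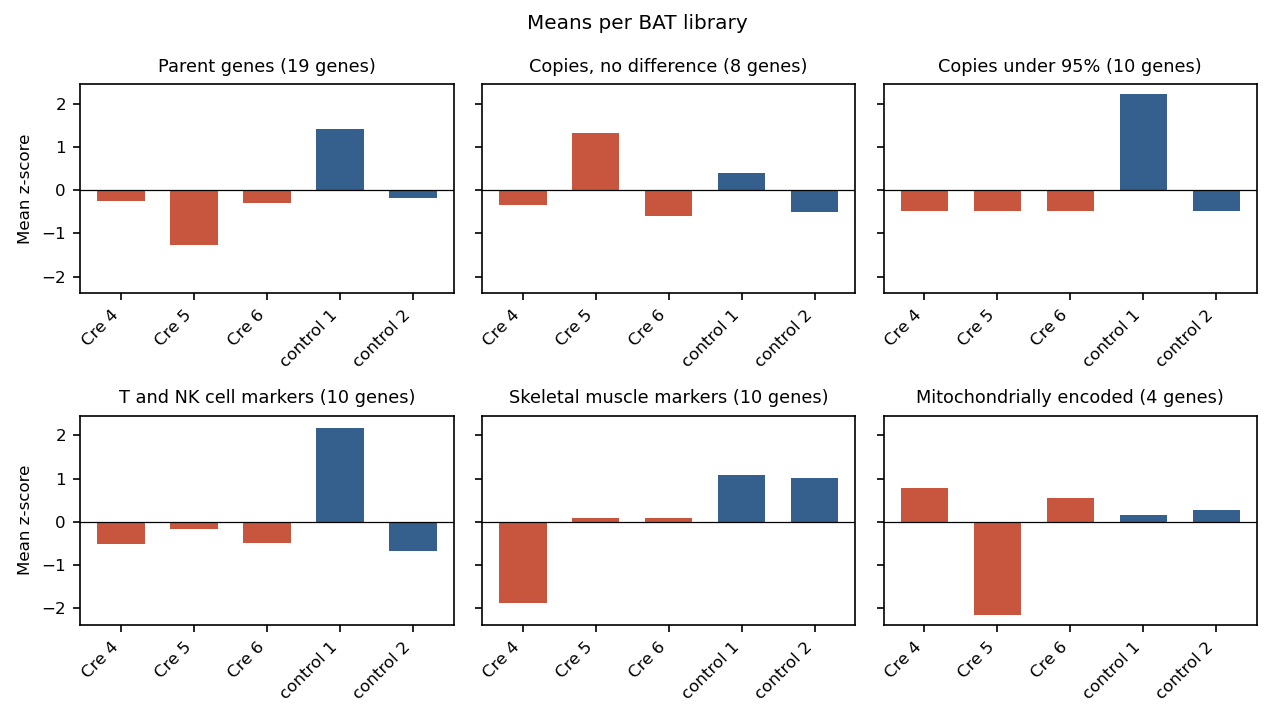
Mean z-score per BAT library (Cre libraries in red, left of control libraries in blue) of parent genes, of unaltered copies, of copies under 95% identity, and of 3 marker lists; bars start at 0. In Cre 5 the parents average -1.26 and the unaltered copies 1.32, and control 1 averages 2.23 for the copies under 95% identity and 2.16 for the T and NK cell markers.

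Leaving out control 1 removed most of the mean difference of the family as a whole, but its classes then differed in sign. The mean over the 49 genes was -0.39, -0.33 and -0.42 in Cre 4, 5 and 6, against 1.44 and -0.32 in controls 1 and 2, a difference of -0.94, and over all 2500 genes it was -0.93. The median difference was -1.31 for the 49 genes and -1.29 for all genes. Without control 1, 1236 of the 2500 genes were lower in Cre, 1141 higher and 123 equal. The mean difference was then -0.42 for the 19 parents, with 15 lower and 4 higher, and -0.93 for the 3 paralogues. For the 27 copies it was 0.30, with 4 lower, 19 higher and 4 equal. Over the 49 genes it was -0.055, with 21 lower, 23 higher and 5 equal. Without control 2 it was -1.82, and 13 of the 49 passed the adjusted threshold, as did 17.3% of all genes, with control 1 as the only control. 10 of the 49 genes (20.4%) had groups that did not overlap, all with Cre below control. Of all genes 33.0% did not overlap, 28.7% with Cre below and 4.36% with Cre above. Without genes tied at the lowest score, groups did not overlap in 9 of 30 members and in 790 of 2169 genes.

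Promoters were compared because 14 parents shared a low library. RefSeq promoters of GRCm38.p6 were matched for 18 of the 20 parents and for the 3 paralogues, at the first start listed. The letters CGGAAG, the core of ETS-family binding sites, on either strand from position -250 to 50 relative to the start, occurred in 12 of 18 parents and in none of the 3 paralogues, and in 17.2% of 27025 mouse promoters. Of the parents lowest in Cre 5, 10 of 13 with a promoter held it, and 2 of the 4 others did. A match is a description of letters and not a site, and its part in the scores was not tested. The promoter of Rps6, the parent with the lowest Cre 5 score, holds it 3 times within 100 bases before and 30 after the start (chr4:86857338-86857467, minus strand); that of Rpl3l, the muscle paralogue with its low library in Cre 4, does not (chr17:24727726-24727855, plus strand). The promoter of Rps21, the parent with the highest Cre 5 score (0.63), also holds CGGAAG 3 times in that span. Those of Rpl10a, Rpl13 and Rps19, all lowest in Cre 5, hold none from position -250 to 50. That of the paralogue Rpl22l1, also lowest in Cre 5 (-1.84), holds none there either. Capitals mark CGGAAG or its reverse complement.
Rps6 promoter: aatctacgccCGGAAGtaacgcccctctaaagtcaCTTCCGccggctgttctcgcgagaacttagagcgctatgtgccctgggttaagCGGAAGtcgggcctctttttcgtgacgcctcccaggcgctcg
Rpl3l promoter: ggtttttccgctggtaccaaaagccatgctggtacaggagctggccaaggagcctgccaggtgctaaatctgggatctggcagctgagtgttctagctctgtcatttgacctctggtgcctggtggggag
The pyrimidine run CTCTTTC, on the sense strand from position -50 to 30, was found in Rps15a and Rpl26, 2 of 18 parents, and in 1.06% of all promoters.

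Other genes of translation in the BAT table were few, and none passed the test. Rack1, a small-subunit scaffold protein outside the naming rule, scored -0.87, -0.08 and -0.82 in Cre libraries, against 2.04 and -0.56 in controls. Of 10 elongation factors 2 were present, both with lower Cre means. Eef1a2, the elongation factor isoform of muscle and neurons, scored -1.91, 0.18 and 0.08 in Cre libraries, against 1.06 and 1.002 in controls, lowest in Cre 4 as Rpl3l was. Of 44 initiation factors Eif2s2, Eif4a2 and Eif4b were present, all lower, with differences of -1.86, -1.69 and -1.43. Of 6 further transcripts with a pyrimidine tract 2 were present: Tpt1 scored 0.36, -2.17 and 0.36 in Cre libraries, against 0.47 and 0.08 in controls, while Nap1l1 was highest in control 1 (2.20). Tpt1 thus had the low Cre 5 seen in Rps6 and Rps13. Of 45 ribosome biogenesis genes only Myc was present, at -0.50, -0.27 and -0.53 in Cre libraries, against 2.21 and -0.67 in controls. Rps6ka2, a kinase of the RSK family, scored -0.95, -0.78 and -0.34 in Cre libraries, against 1.72 and 1.002 in controls, with an adjusted p of 0.363 in limma's model.

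In liver, 9 of these genes were in the table, and the clearest separation was within the Rps12 group. Rps12 scored 0.86, 0.98 and 0.89 in Cre 10, 11 and 12, against -0.10, -1.32 and -1.32 in controls 7, 8 and 9. Every Cre library was above every control, and controls 8 and 9 were tied at the lowest score of Rps12. The level at which they were tied cannot be read from z-scores. The difference was 1.83 with a standard error of 0.41, and the adjusted p in limma's model was 0.623. Rps12-ps3, whose coding sequence is identical, scored -0.99, -1.20 and -0.76 in Cre libraries, against 0.97, 1.23 and 0.74 in controls. Every Cre library was below every control, and the difference of -1.96 (standard error 0.19, adjusted p = 0.449 in limma's model) was the most negative of all 2500 liver genes. The 2 genes thus had opposite signs in all 6 libraries, although Rps12 was close to 0 in control 7. Because no base of the coding sequence tells them apart, how the counting divided reads between them may bear on both values, and it was not tested. When libraries were left out in turn, neither gene changed direction.

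**Figure D4:**
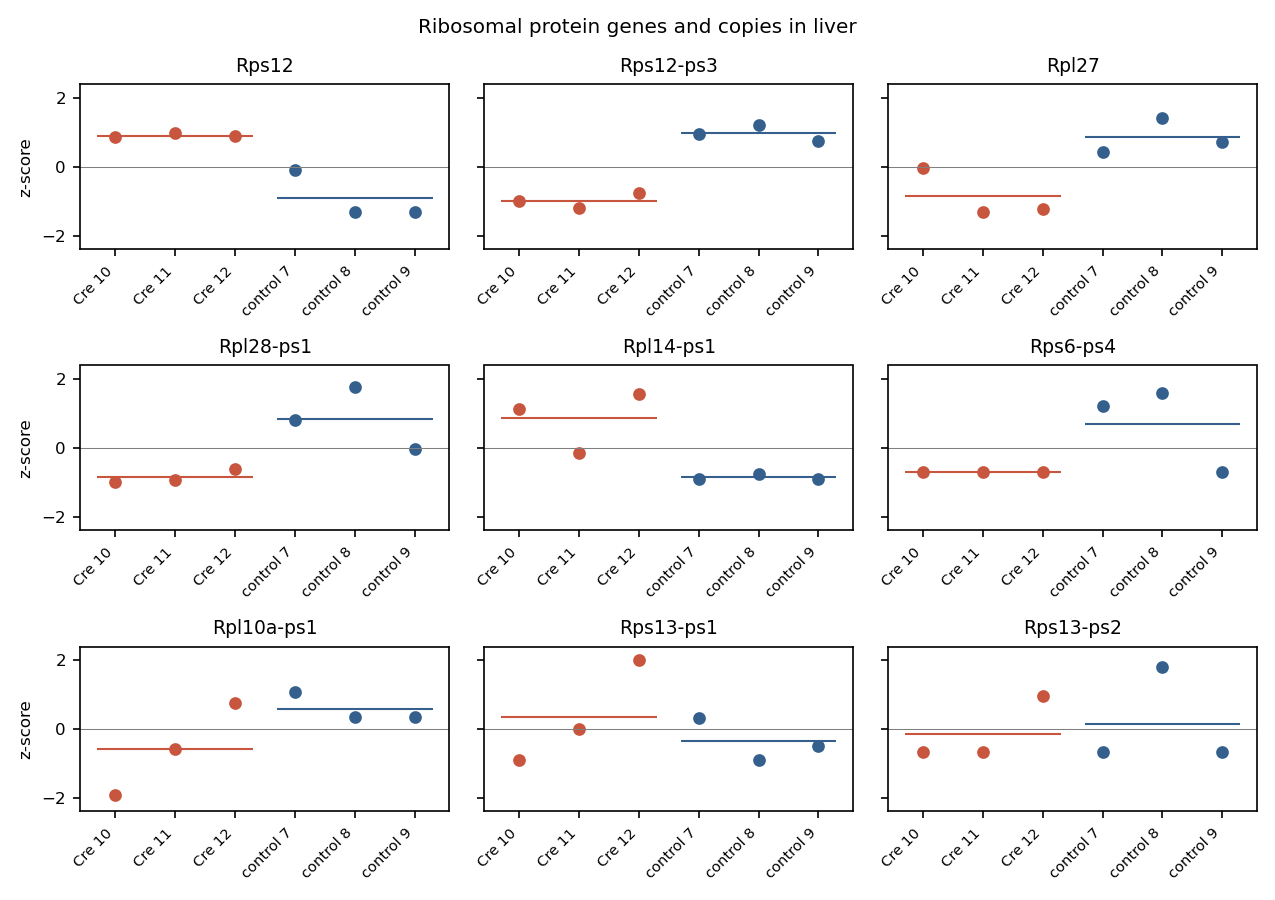
Score of the 9 ribosomal protein genes and copies in each liver library (Cre in red, left of control in blue); horizontal lines are group means. Rps12 is above 0.8 in every Cre library and below 0 in every control, and Rps12-ps3 is below -0.7 in every Cre library and above 0.7 in every control.

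The other liver parent, Rpl27, a large-subunit gene, scored -0.03, -1.31 and -1.23 in Cre libraries, against 0.43, 1.44 and 0.71 in controls. Its groups did not overlap, with a difference of -1.72, opposite in sign to that of Rps12. Rpl28-ps1, identical with Rpl28 over 411 coding bases, scored -0.997, -0.92 and -0.63 in Cre libraries, against 0.81, 1.76 and -0.02 in controls, also without overlap. Rpl14-ps1 was higher, with 1.14, -0.14 and 1.57 in Cre libraries, against -0.91, -0.76 and -0.91 in controls. The groups of Rpl14-ps1 did not overlap, and controls 7 and 9 were tied at its lowest score. The remaining copies overlapped. Rps6-ps4 scored -0.70 in all 3 Cre libraries and in control 9, against 1.21 and 1.60 in controls 7 and 8. Rpl10a-ps1 scored -1.93, -0.58 and 0.74 in Cre libraries, against 1.08, 0.34 and 0.34 in controls. Cre 10 was the low library of Rpl10a-ps1. Rps13-ps1 scored -0.91, -0.02 and 2.003 in Cre libraries, against 0.32, -0.91 and -0.50 in controls, and was lower in Cre when Cre 12 was left out. Rps13-ps2 scored -0.69, -0.69 and 0.95 in Cre libraries, against -0.69, 1.79 and -0.69 in controls, and was higher in Cre when control 8 was left out.

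By the mean of the Cre libraries, 6 of the 9 liver genes were lower and 3 higher, where 60.4% of all liver genes were lower and 39.6% higher. Groups did not overlap in 5 of the 9 (55.6%), 3 with Cre below and 2 with Cre above control, where 22.6% of all genes did not overlap, 12.3% with Cre below and 10.3% with Cre above. None passed limma's adjusted threshold, and none did with moderated variances; 5 had an unadjusted p under 0.05, as did 5.76% of all genes. With 9 genes, and with copies that share their parent's sequence, these shares rest on few independent values. The 5 copies with no difference over the aligned bases all had lower Cre means, and the 2 copies with differences, Rpl14-ps1 (98.9%) and Rps13-ps1 (99.6%), had higher ones. Control 8 was the highest library for 4 of the unaltered copies and for Rpl27, and for 56.4% of all liver genes. The B and plasma cell markers (7 of 8 listed) averaged -0.67, -0.66 and -0.19 in Cre libraries, against -0.56, 2.02 and 0.05 in controls, also highest in control 8; their part in these scores was not tested.

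6 genes were in both tables, where each tissue was scaled by itself. Rps12 was lower in BAT Cre libraries and higher in liver Cre libraries, with differences of -0.88 and 1.83; the BAT difference minus the liver difference was -2.71 with a standard error of 1.10, and its adjusted p over 526 shared genes was 0.687 in limma's model. Rps12-ps3 had differences of -1.17 in BAT and -1.96 in liver, with the same sign in both. Rps6-ps4 (0.57 in BAT and -1.41 in liver) and Rpl14-ps1 (0.04 and 1.71) had adjusted p-values of 0.752 and 0.800 for the difference between tissues. For Rpl10a-ps1, Rps13-ps2 and Rps12-ps3 these were 0.998, 0.998 and 0.951. No shared gene passed that test (0 of 526, 0.0%), and 36 genes (6.84%) had an unadjusted p under 0.05, among these genes Rps12 alone.

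Translation genes in the liver table did not pass the test either. Eef2, the translocase of elongation, scored 0.23, 0.62 and 0.68 in Cre libraries, against 0.45, -2.20 and 0.23 in controls, low in control 8 alone. Of 44 initiation factors 5 were present, 3 with a higher and 2 with a lower Cre mean. Eif4ebp2 and Eif4ebp3, both repressors of cap-dependent initiation, differed in sign, at 1.41 and -1.53, each without overlap. Eif2s3x and Eif4h had differences of 1.28 and 0.93 and were lowest in control 8, as Eef2 was; the fifth, Eif4e3, had a difference of -0.19.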

How the data were processed

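The authors deposited 1 score per gene and library for 2500 genes of each tissue. From the values these are row z-scores: the squares of every liver row sum to 6, and those of every BAT row do after a sixth value that brings the row to a sum of 0 is included, so the BAT scaling drew on 1 library more than the 5 used here. TopHat 1.3.3, DESeq2 1.20.0, mm9, mm10 and GRCm38 are listed without a role in the submitters' processing notes. The BAT scores were deposited under the title BAT DOWNREGULATED CRE and the liver scores under LIVER UPREGULATED CRE. By the mean, 17.5% of the BAT genes were higher and 60.4% of the liver genes lower in Cre. Beyond these titles, the choice of the 2500 genes and any use of strand in counting were not given in the sources used here. Per the labels' protocols, libraries could be directional or non-directional. Depth is unknown.

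Cre and control libraries, grouped by their titles, were compared per gene with limma 3.58.1 in R 4.3.3, as a two-sided gene-wise linear model without moderated variances; p-values were adjusted by the Benjamini-Hochberg method over all genes of a table, with a threshold of 0.05; genes with a residual SD under 1e-06 were not tested. The difference between tissues was an interaction contrast over the 526 shared genes. The model was tested on simulated data. Groups were called non-overlapping when every Cre library lay on 1 side of every control. Copies were aligned locally with Biopython 1.88 to the parent's coding sequence, from GENCODE M21 transcripts; the identity limit of 95% was chosen after the values were seen. Promoters are from RefSeq. 2 members are counted but not reported singly here. Given with the value in every library were genes in both tables, parents and -ps copies present in the same table, the paralogues, and the 4 smallest unadjusted p-values per class and direction; further genes were chosen after their values were seen. The members and lists were chosen with earlier results of these data known. Alternatives left out each library or genes tied at the lowest score, moderated the variances, or changed the members, the average or the scaling.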

Additional observations from a re-analysis of the deposited data

How the results depend on the processing

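No paired analysis was possible because library numbers are unique to a group and the labels tie no library of 1 group to another. No member passed the adjusted threshold in BAT or liver with moderated variances, without tied genes, or with a library left out, except without BAT control 2, when 13 of 49 BAT members and 433 of 2500 BAT genes passed. With a library left out, BAT genes past the threshold ranged over 0 to 433 and members over 0 to 13, and non-overlapping groups over 946 to 2163 BAT genes (1240 without control 1) and 11 to 42 BAT members. The BAT members' mean difference ranged over -1.82 (without control 2) to -0.055 (without control 1). In liver, non-overlapping genes ranged over 697 to 1176, with the highest number without control 7; without tied genes 3 of the 4 liver members left did not overlap, and the members' mean difference was -1.64, against 0.054 for the parents alone. Ranks in place of scores kept the direction of the mean in both tissues. With a lone control, its spread is assumed to equal that of the Cre libraries.

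The rule stated above for giving the value in every library covered 33 BAT members. Among these 33, signs changed when a library was left out for Rpl14-ps1 (-0.84 to 0.92), Rpl3-ps2 (-0.061 to 1.35), Rpl36a-ps2 (-0.78 to 1.53), Rpl39-ps (-0.079 to 1.28), Rps12 (-1.91 to 0.14), Rps13-ps2 (-0.98 to 1.48), Rps16-ps2 (-0.34 to 1.17), Rps3a3 (-2.71 to 0.0078), Rps6-ps1 (-2.66 to 0.12) and Rps6-ps4 (-0.34 to 1.03). In liver they changed for Rps13-ps1 (-0.10 to 1.35) and Rps13-ps2 (-0.83 to 0.54). The difference between tissues changed sign for Rpl10a-ps1 (-0.62 to 1.10) and Rps13-ps2 (-0.70 to 1.76). The cause was not tested. For the same 33 BAT members, 137 of 153 such values kept their direction and side of the threshold. So did 52 of 54 for the 9 liver members and 60 of 66 between tissues. Over all 49 BAT members, 19 changed or lost their sign without control 1, 9 without Cre 5 and 3 without control 2.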

Other observations

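A few relatives of the ribosomal protein genes fall outside the naming rule, and they are given as values chosen after these were seen. Rps27rt, a retrogene of Rps27, is in both tables. In BAT it scored -0.07, -1.90 and 1.43 in Cre 4, 5 and 6, against 0.44 and -0.23 in controls 1 and 2, lowest in Cre 5 as most parents were. In liver it scored -1.39, -0.67 and -0.24 in Cre 10, 11 and 12, against 1.37, 1.25 and -0.32 in controls 7, 8 and 9, and the groups overlapped through control 9. Mrps36-ps1, the only BAT gene with a symbol of the mitochondrial ribosomal protein family, scored -0.47, 2.23 and -0.34 in Cre libraries, against -0.47 and -0.47 in controls, highest in Cre 5 as Rpl10-ps1 and Rps12l1 were.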
